A study of Mus musculus with 4 samples.

Results

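Accessible chromatin was described at 2 antiviral gene pairs, Mx1 with Mx2 on chromosome 16 and Rsad2 with Cmpk2 on chromosome 12, in bone marrow-derived macrophages (BMDMs) with and without histone H3.3. The pairs were chosen by how their ATAC-seq peaks differed between the genotypes in these same peak lists, so the values given for them are a description and carry no test. Every peak overlapping a gene pair or the 20 kb on either side of it was taken. This gave 15 of 55742 peaks in WT replicate 1, 18 of 64939 in WT replicate 2, 23 of 51955 in cKO replicate 1 and 29 of 60884 in cKO replicate 2. Overlapping peaks of the 4 libraries were merged into regions, of which 31 of 71243 lay in the 2 windows. The 4 genes stood among 21756 genes, the annotated protein-coding genes together with Mx2, and shares of all genes refer to this set. The size of a peak is given as the percentile of its area, the signal value that the caller gives for the whole peak, within the list of its own library. A percentile of 0 is the smallest peak and 100 the largest, and ranks were used because the area itself depends on depth.

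ATAC-seq maps DNA that the Tn5 transposase can reach, and the assay was run on BMDMs at day 7 of a culture of 6 to 8 days in L929-conditioned medium, which supplies the growth factor M-CSF. WT cells came from H3f3a fl/fl H3f3b fl/fl mice without Cre. H3.3cKO (cKO) cells came from H3f3a fl/fl H3f3b fl/fl mice that also carried LysM cre/cre, so both genotypes share the floxed alleles of the genes that encode H3.3. All mice had a C57BL/6 background, were 8 to 10 weeks old and of both sexes, and each genotype had 2 libraries labelled as biological replicates. LysM-Cre is expressed from the Lyz2 locus in macrophages and granulocytes, and the controls carry no Cre. The study's notes say that deletion of H3f3b varied between cKO samples from complete to partial, and which state these libraries had is not given in the sources used here.

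Mx1 and Mx2 encode interferon-induced GTPases of the dynamin family that block the replication of viruses, Mx1 in the nucleus and Mx2 in the cytoplasm. C57BL/6 mice carry a defective Mx1 allele, and Mx2 is annotated in GENCODE as a polymorphic pseudogene. Rsad2 encodes viperin, a radical SAM enzyme that turns CTP into a chain-terminating nucleotide, and its neighbour Cmpk2 encodes a mitochondrial nucleotide kinase that can supply CTP. Type I interferon induces these genes through the factor ISGF3, which binds the interferon-stimulated response element (ISRE). Interferon gamma acts through the gamma-activated site, AP-1 is the binding site of Fos, Jun and related factors, and PU.1 is the lineage factor of macrophages.

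The deleted genes gave a weak check of the labels. The region over exon 2 of H3f3a, the floxed exon, was present in the WT lists and absent from the cKO lists. Its WT percentiles were low, 5.02 and 19.1, and 7.25% of all regions were likewise called in both WT libraries and no cKO library. The H3f3a promoter was called in all 4, at 96.0 and 97.2 in WT, against 93.4 and 94.1 in cKO. Both H3f3b regions were also called in all 4. They stood at 94.2 and 95.5 in WT, against 87.0 and 81.4 in cKO, and at 23.7 and 34.3, against 28.7 and 42.5. By the study's description the floxed segment of H3f3b spans all of its exons. Where the H3f3b regions lie relative to that segment was not examined. A peak lay within 1 kb of the start site of 8 of 8 macrophage marker genes in every library. Their median percentile was 85.3 and 88.0 in WT, against 75.4 and 81.9 in cKO, with 3 of the 8 lower in both cKO libraries (Spi1, Mertk and Cebpa) and 1 higher (Cd68). Over all regions called in all 4 libraries, 35.1% were lower and 22.2% higher in both cKO libraries, so nothing is read from these counts. Among markers of other cells of the marrow, Cd3e, Ncr1, Elane and Mpo were called in no library. Peaks were called at 5, 6, 6 and 6 genes of that list (WT replicates 1 and 2, then cKO replicates 1 and 2), with median percentiles of 24.2, 34.6, 45.1 and 54.7. Of these genes, 4 stood higher in both cKO libraries (Ms4a1, Siglech, Flt3 and Ly6g, the last called in no WT library) and S100a8 stood lower. The part of either marker list in the results at the Mx and Rsad2 loci was not tested.

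A region is called gained where both cKO libraries and no WT library have a peak in it, and lost where the reverse holds. The Mx window (chr16:97427035-97580900, mm10, 154 kb) held 19 regions. Of these 5 were gained and 0 lost, against 3.72% of all regions gained and 7.25% lost. The Rsad2-Cmpk2 window (chr12:26422746-26499837, 77.1 kb) held 12 regions, 3 gained and 0 lost. Gained regions thus made up 26.3% of the Mx regions and 25.0% of the Rsad2-Cmpk2 regions, and nothing is read from the distance to the background because the same peaks chose the genes. In a bulk assay, more cells with an open site and a more open site in each cell cannot be told apart.

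The number of peaks in the Mx window was 10 and 13 in the WT libraries and 15 and 17 in the cKO libraries. Peaks covered 5815 and 6546 bp of it in WT, against 10514 and 15705 bp in cKO, a mean of 13109.5 ± 3670 bp (SD, n = 2) in cKO and 6180.5 ± 517 bp in WT. Both measures were higher in each cKO library than in each WT library, and cKO replicate 2 was above cKO replicate 1. In the Rsad2-Cmpk2 window the numbers were 5 and 5 peaks in WT, against 8 and 12 in cKO. The covered length there was 3021 and 3347 bp in WT, against 5297 and 8576 bp in cKO (3184 ± 231 and 6936.5 ± 2320 bp, SD, n = 2). The groups did not overlap at either locus. The share of like windows with such a separation was not computed, so nothing is read from it. For body cover, both cKO libraries were above both WT libraries in 13.4% of genes with a peak in the body and below in 36.6%. Without cKO replicate 2, the difference in covered length was 4333.5 bp at the Mx locus and 2113 bp at Rsad2-Cmpk2, where all libraries gave 6929 and 3752.5 bp. Across the genome the groups overlapped in both measures. The whole lists held 55742 and 64939 peaks in WT and 51955 and 60884 in cKO, and the covered total was 31.0 and 35.2 Mb in WT and 28.4 and 32.7 Mb in cKO.

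Regions just inside and just outside the windows are given as values. The outermost Mx region on the left, in an intron of Bace2, was called in all 4 libraries, and the nearest region beyond the right edge, 12097 bp away, was also called in all 4. Beyond the left edge of the Rsad2-Cmpk2 window the nearest region, 7301 bp away, had percentiles of 44.1 and 51.2 in WT, against 23.5 and 51.6 in cKO, while the first region inside was the Rsad2 downstream region described further on. Beyond the right edge, 14118 bp away, lay a region called in cKO replicate 2 alone, at a percentile of 14.6.

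Mx1 (ENSMUSG00000000386.15, chr16:97447035-97462907, minus strand) was the member with the largest difference in peak cover. The share of its 15873 bp body that lay under peaks was 4.02% and 3.01% in WT, against 30.8% and 52.5% in cKO (3.52 ± 0.713% and 41.7 ± 15.4%, SD, n = 2). Both cKO libraries were far above both WT libraries, and the difference of 38.2 percentage points was at percentile 99.9 of the 14287 genes with a peak in the body. Cover was higher in both cKO libraries for 13.4% of those genes and lower for 36.6%.

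The gained regions of the Mx window lay side by side over the 3′ part of Mx1. Their centres lay 6511, 9403, 12609, 15125 and 16457 bp downstream of the Mx1 start site, the last of them just past the 3′ end of the gene. On the main transcript Mx1-201, which has 15 exons, they touched exon 4, exons 6 to 12, exon 14 and the last exon, 10 of the 15 in all. Of these, 7 lay at least in part under a peak of both cKO libraries, and exons 6, 7 and 14 under a peak of cKO replicate 2 alone.

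The largest of the 5, chr16:97451566-97455441, ran over 3876 bp and, with the peaks of both cKO libraries joined, exons 6 to 12. Its percentile was 62.3 in cKO replicate 1, where peaks covered 2156 bp of it, and 76.2 in cKO replicate 2, where they covered 3818 bp. The region next to it, chr16:97449348-97451247, stood at 7.63 and 56.4 in the cKO libraries. The region in the last exon, chr16:97447262-97448302, stood at 2.13 and 42.7. All 3 were higher in cKO replicate 2, and none was called in either WT library. The remaining gained regions were shorter and showed the same order of the cKO libraries. The region over exon 4, chr16:97456132-97456660, was 529 bp wide and stood at 0.693 and 29.0, and the region past the 3′ end, chr16:97445964-97446935, stood at 3.71 and 41.4. In cKO replicate 1, 4 of the 5 were thus near the bottom of the list. When peaks of below-median area were left out of every list, 1 of the 5 was still called gained, the largest.

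**Figure D1:**
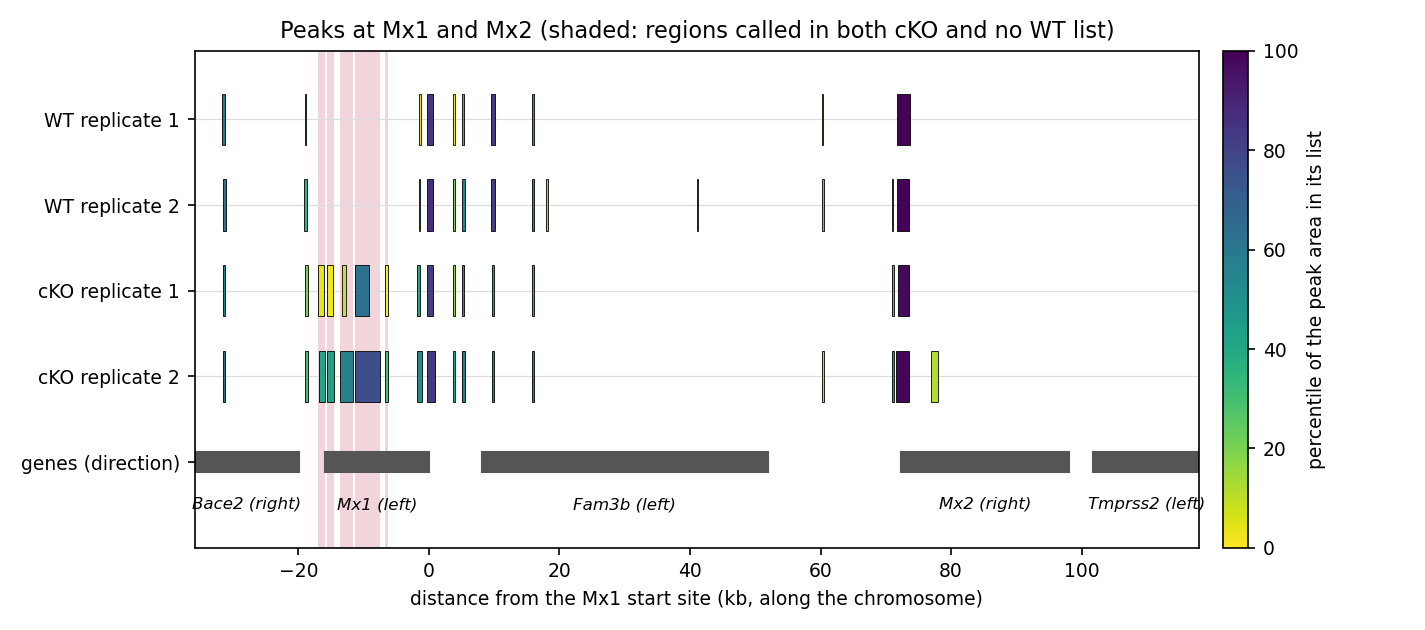
Peaks in the Mx window for each library (rows), placed by distance from the Mx1 start site in kb along the chromosome and coloured by the percentile of peak area within the list. Shaded bands mark the 5 gained regions, which lie over the 3′ part of Mx1, while the start sites of Mx1 and Mx2 carry a peak in every row.

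The 5′ end of Mx1 held a pair of regions called in every library. The region at the first start site, chr16:97462630-97463768, was called in all 4 libraries at percentiles of 84.8 and 87.0 in WT, against 82.3 and 83.0 in cKO. The cKO libraries stood lower (a mean difference of -3.26 percentile points), yet their peaks were wider, with 952 and 955 bp in WT, against 973 and 1134 bp in cKO. The difference was -18.62 points when peaks were ranked by area per bp and -8.739 when ranked by −log10 p. A second region, chr16:97461109-97461887, lay in the first intron of Mx1-201, 1409 bp downstream of its start site. It also lies within 1 kb before the start of a shorter annotated transcript and so is a promoter region of Mx1 by the annotation. It stood at 3.24 and 8.95 in WT, against 40.3 and 52.1 in cKO, a difference of 40.1 percentile points, and it was wider in both cKO libraries (365 and 201 bp against 481 and 779 bp). Of the 14 regions called in all 4 libraries at both loci, this one had the second largest difference after an intron of Rsad2. Its summit lies in the following bases, shown because they hold the only motif searched for that was found there, an AP-1 match in capitals (TGA and TCA with 1 base between, either strand; plus strand of mm10, RefSeq GRCm38.p6, chr16:97461401-97461501).
Mx1 first intron: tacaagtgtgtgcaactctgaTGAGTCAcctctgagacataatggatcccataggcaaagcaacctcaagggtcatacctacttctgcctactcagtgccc

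Among the 9 Mx regions called in all 4 libraries, the percentile was higher in both cKO libraries at 1 and lower at 3, where the genome gave 22.2% higher and 35.1% lower. By width, 3 were wider in both cKO libraries and 2 narrower, beside 16.3% wider and 36.9% narrower over all such regions. Nothing is read from these shares, which come from the contrast that chose the genes. The lower regions were those at the first start site of Mx1 and at the Mx2 promoter and a region in an intron of Fam3b, the gene of a secreted cytokine-like protein that lies between Mx1 and Mx2. This Fam3b region, chr16:97472390-97473027, stood at 82.8 and 81.4 in WT, against 43.8 and 53.4 in cKO (a difference of -33.5), and it was also narrower.

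Mx2 (ENSMUSG00000023341.15, chr16:97535308-97560900, plus strand), annotated in GENCODE as a polymorphic pseudogene, had no gained region among the 4 regions in its body and the surrounding 20 kb. Its promoter region, chr16:97534503-97536603, was among the largest peaks of every list, at 99.5 and 99.6 in WT, against 97.7 and 98.6 in cKO. The cKO libraries were lower, with a mean difference of -1.43 percentile points, which was -10.29 by area per bp and -6.073 by −log10 p. Peak cover of the gene body was 5.06% and 4.41% in WT, against 4.41% and 8.67% in cKO, so the groups overlapped and the difference of 1.8 percentage points was within the spread of the libraries. That difference stood at percentile 94.7 of the genes with a peak in the body. The excess in cKO replicate 2 came with an intronic region of 1065 bp at a percentile of 12.1 that no other library had. A small region upstream of Mx2, with its centre at -1347 bp from the start site, was not called in WT replicate 1 and stood at 15.0 in WT replicate 2, 29.8 in cKO replicate 1 and 42.7 in cKO replicate 2. The 2 genes of the Mx pair thus differed, with 4 gained regions in the body of Mx1 and 0 in that of Mx2.

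The protein-coding genes around the Mx pair did not share the higher cover of Mx1. In Fam3b the covered share was 2.42% and 3.36% in WT, against 1.76% and 1.69% in cKO. It was also lower in both cKO libraries in Bace2, which encodes an aspartyl protease, and in Tmprss2, which encodes a transmembrane serine protease. The differences were -1.16 (Fam3b), -0.17 (Bace2) and -0.0505 (Tmprss2) percentage points. These stood at percentiles 18.4, 51.0 and 59.8 of genes with a peak in the body. Cover was lower in both cKO libraries for 36.6% of such genes, so nothing is read from the lower values.

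Rsad2 (ENSMUSG00000020641.16, chr12:26442746-26456452, minus strand) showed the same kind of difference as Mx1. Peaks covered 4.65% and 6.24% of its 13707 bp body in WT, against 19.5% and 33.3% in cKO (5.45 ± 1.13% and 26.4 ± 9.71%, SD, n = 2). The groups did not overlap, and the difference of 20.9 percentage points was at percentile 99.7 of all genes with a peak. The 3 gained regions lay in introns, with centres 4170, 4983 and 6539 bp downstream of the start site. The widest, chr12:26449522-26450303, stood at 0.077 and 28.1 in the cKO libraries. The middle one, chr12:26451122-26451816, stood at 15.8 and 41.4. The nearest to the start site, chr12:26451973-26452590, stood at 7.84 and 15.5. As at Mx1, cKO replicate 2 was higher at each, and the values of cKO replicate 1 were low in its list. None of the 3 was called gained once peaks of below-median area were left out, and the difference in body cover was then 5.621 percentage points.

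A further 3 regions, over the 3′ end of Rsad2 and in its body, were called in cKO replicate 2 alone, at percentiles of 39.3, 8.59 and 1.84, and are not counted as gained. Without cKO replicate 1 the window had 7 gained regions. The bases around the summit of the gained region nearest to the start site are given because this is the only gained Rsad2 region with an AP-1 match, in capitals (plus strand, chr12:26452147-26452347).
Rsad2 gained: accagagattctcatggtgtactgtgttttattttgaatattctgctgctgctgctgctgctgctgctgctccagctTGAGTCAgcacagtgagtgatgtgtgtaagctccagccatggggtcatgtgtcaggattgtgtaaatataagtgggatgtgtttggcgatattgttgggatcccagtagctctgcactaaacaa

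Of the 5 regions called in all 4 libraries at the Rsad2-Cmpk2 locus, 3 had a higher percentile in both cKO libraries and 0 a lower one, while 4 were wider and 0 narrower. Over all such regions of the genome, 22.2% were higher, 35.1% lower, 16.3% wider and 36.9% narrower. As at Mx, nothing is read from these shares, because the same contrast chose the genes. The largest percentile difference of the 5 was in an intron of Rsad2, 3383 bp from the start site at chr12:26452727-26453411. That region stood at 6.26 and 31.3 in WT, against 57.9 and 65.6 in cKO, 43.0 points higher on average, and its peaks covered 231 and 330 bp in WT against 641 and 648 bp in cKO. It is shown because the bases around its summit hold an AP-1 match and, 2 bases away, a PU.1 match (GAGGAAG, here on the reverse strand), both in capitals (plus strand, chr12:26453018-26453218).
Rsad2 intron: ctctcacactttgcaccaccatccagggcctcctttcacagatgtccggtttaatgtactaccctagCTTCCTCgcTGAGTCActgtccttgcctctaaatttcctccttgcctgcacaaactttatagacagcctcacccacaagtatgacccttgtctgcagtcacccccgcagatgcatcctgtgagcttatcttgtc

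The second lay downstream of the gene, 16752 bp from the start site at chr12:26439295-26440105. Its percentile was 40.6 and 49.3 in WT, against 74.0 and 81.3 in cKO, 32.7 points higher. The peak was wider as well, with 480 and 515 bp in WT, against 792 and 811 bp in cKO. It is one of the few regions with an ISRE core (GAAA repeated after 2 bases, either strand), which is in capitals (plus strand, chr12:26439494-26439614).
Rsad2 downstream: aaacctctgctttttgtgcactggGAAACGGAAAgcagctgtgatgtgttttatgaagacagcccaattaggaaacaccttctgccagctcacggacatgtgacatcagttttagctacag

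At the Rsad2 promoter, chr12:26455858-26456785, the difference was smaller. The region stood at 75.1 and 79.8 in WT, against 84.4 and 85.5 in cKO, 7.49 points higher, and covered 738 and 858 bp in WT, against 909 and 928 bp in cKO. The groups did not overlap in either measure. Ranked by −log10 p, the difference was 14.23 points. The percentiles at the Mx2 promoter and at the first start site of Mx1 were lower in cKO, while the Mx1 region before the start of the shorter transcript was higher, as the Rsad2 promoter was. The 250 bases before the RefSeq start site are printed in the direction of transcription (minus strand, chr12:26456453-26456702), with an ISRE core and an AP-1 match in capitals.
Rsad2 promoter: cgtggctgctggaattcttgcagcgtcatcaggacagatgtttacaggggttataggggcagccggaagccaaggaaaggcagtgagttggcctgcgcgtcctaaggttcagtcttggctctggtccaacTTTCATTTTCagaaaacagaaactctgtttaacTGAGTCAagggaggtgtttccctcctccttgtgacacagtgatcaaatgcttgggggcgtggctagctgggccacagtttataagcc

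Between the 2 genes, with its centre at -3813 bp from the Rsad2 start site, a region at chr12:26459997-26460533 stood at 72.3 and 78.7 in WT, against 73.3 and 76.2 in cKO, so the cKO values lay between the WT values. This region is shown because it alone held 2 ISRE cores within 100 bp of its summit (capitals, plus strand, chr12:26460223-26460343).
Rsad2 to Cmpk2: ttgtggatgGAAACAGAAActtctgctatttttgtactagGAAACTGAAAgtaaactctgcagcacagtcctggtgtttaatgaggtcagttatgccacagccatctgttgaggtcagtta

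Cmpk2 (ENSMUSG00000020638.8, chr12:26469204-26479837, plus strand) differed less than Rsad2. Its 1 region, chr12:26468961-26470254 over the start site and exon 1, stood at 88.1 and 90.4 in WT, against 89.5 and 92.2 in cKO. The percentiles overlapped, and the difference of 1.61 points was within the spread of the libraries (-0.2604 by area per bp), while the width was larger in cKO (1116 and 1107 bp against 1152 and 1294 bp). Peak cover of its 10634 bp body was 8.44% and 8.48% in WT, against 8.89% and 9.88% in cKO, a difference of 0.926 percentage points. Both cKO libraries were above both WT libraries, as for 13.4% of genes with a peak in the body. The difference was at percentile 90.8 of those genes. Rsad2 and Cmpk2 thus resembled the Mx pair in that 1 gene of each pair carried the gained regions in its body. By the wider rule of the body and 20 kb on each side, Mx1, Rsad2 and Cmpk2 had a gained region, Cmpk2 only through those inside Rsad2, where 10.7% of all genes had one. None of the 4 had a lost region in that range, against 21.0% of all genes. The shares of all genes include genes without a peak in the body.

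**Figure D2:**
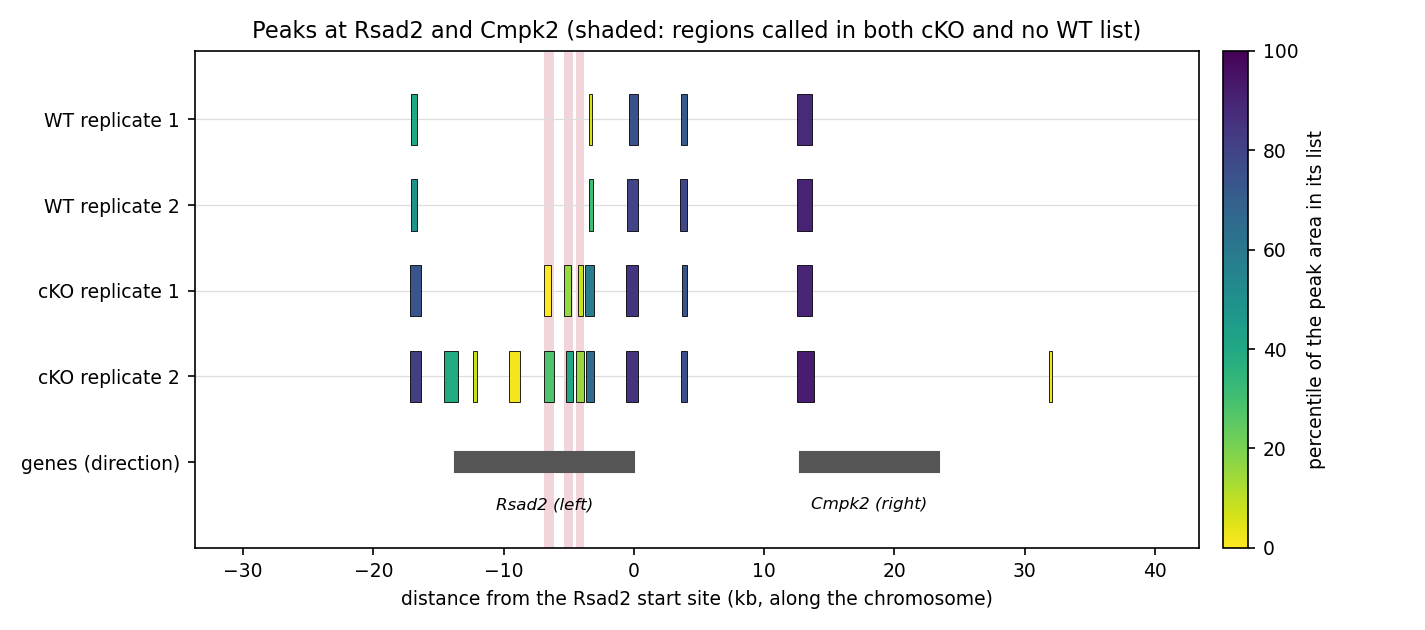
Peaks in the Rsad2-Cmpk2 window for each library (rows), placed by distance from the Rsad2 start site in kb along the chromosome and coloured by percentile of peak area within the list. Shaded bands mark the 3 gained regions inside Rsad2, and the peak over the start of Cmpk2 is of like size in all 4 rows.

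**Figure D3:**
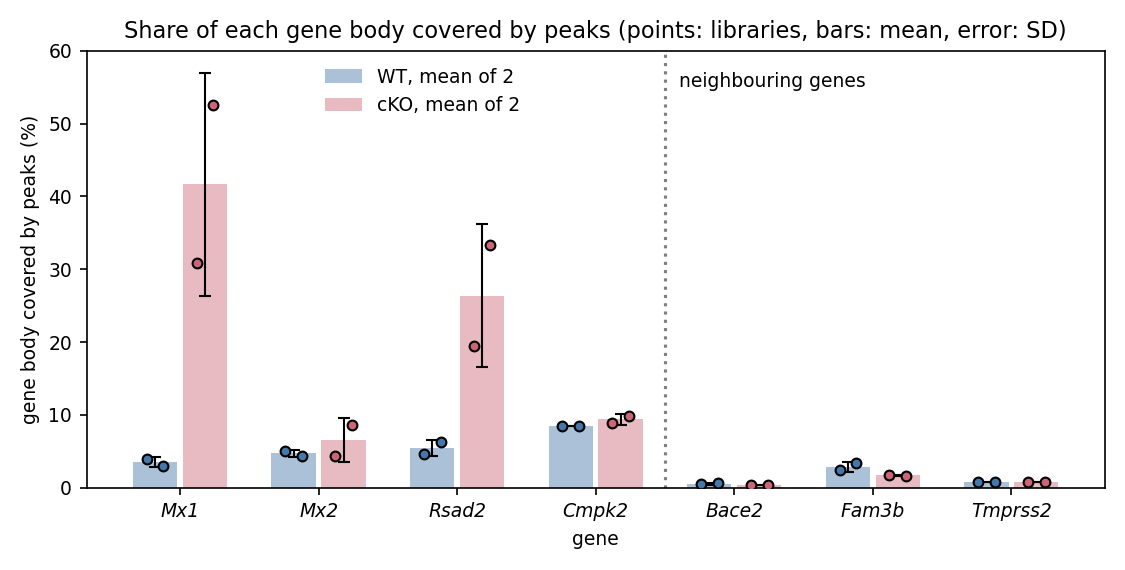
Share of each gene body covered by peaks (%), with 1 point for each library, bars for the mean of 2 libraries and error bars for the SD, for the 4 antiviral genes and 3 neighbours. Mx1 reaches 30.8% and 52.5% and Rsad2 19.5% and 33.3% in cKO, while both WT libraries of either gene stay below 7%.

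**Figure D4:**
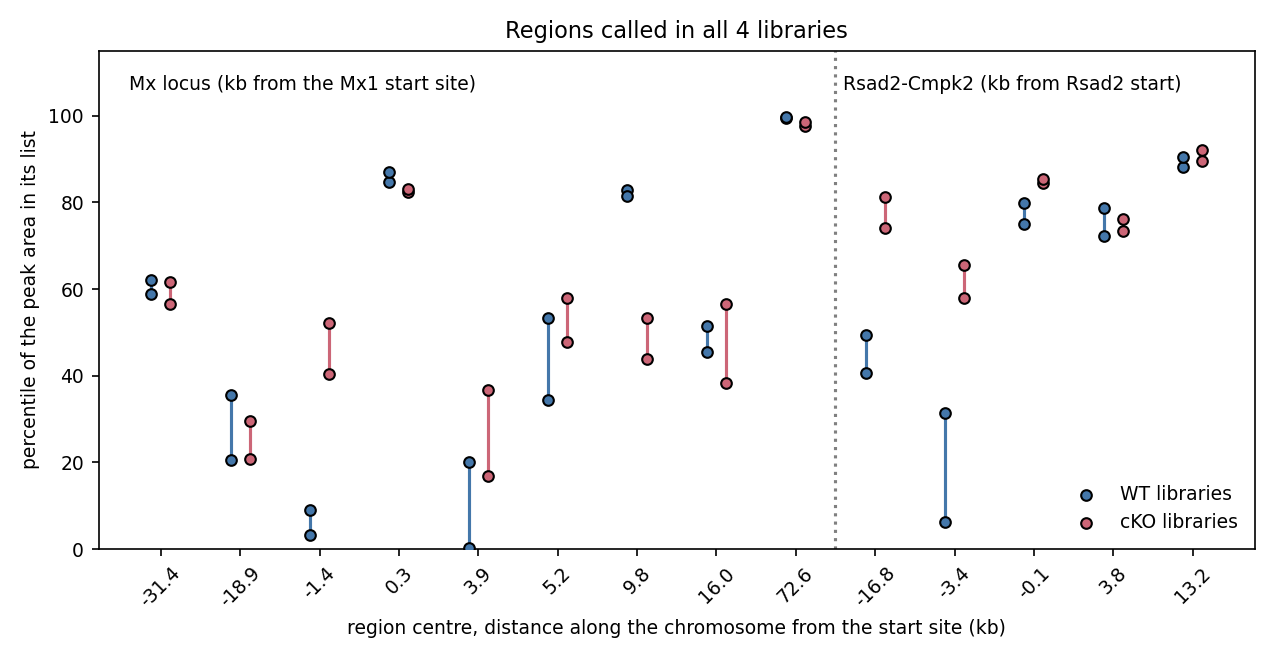
Percentile of peak area within each list for the 14 regions called in all 4 libraries, ordered along each locus and labelled by distance of the region centre from the Mx1 or Rsad2 start site in kb, with WT and cKO points side by side. The first intron of Mx1 and the Rsad2 intron and downstream regions stand higher in cKO, and the Fam3b intron region 9.8 kb from the Mx1 start stands lower.

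The width of the gained peaks was 358 to 2156 bp with a median of 567 bp in cKO replicate 1 and 529 to 3818 bp with a median of 791.5 bp in cKO replicate 2. All gained peaks of the genome had median widths of 276 and 292 bp in those libraries. Of the 8 gained regions at the loci, 6 were at or above the 90th percentile of width of all gained regions, which was 642 bp. The −log10 p at the summit, a measure of height, was low at the same time. Its median over the 8 gained peaks was 3.03 in cKO replicate 1 and 3.37 in cKO replicate 2, where the 14 peaks at regions called in all 4 libraries had medians of 5.05 and 5.66. All gained peaks of the genome had medians of 3.63 and 3.95. Next to the shared peaks of their own locus, the gained peaks were wider at Mx, with medians of 925 and 1041 bp against 392 and 416 bp, and narrower at Rsad2-Cmpk2, with 530 and 618 bp against 792 and 811 bp. Regions of 1065, 1101 and 829 bp that cKO replicate 2 alone had were likewise low, at −log10 p of 3.19, 3.23 and 3.13. The remaining regions that this library alone had were narrow, 289 and 224 bp, with −log10 p of 3.68 and 3.58. These values belong to the contrast used to pick the genes. A peak called in 1 genotype only can also have a signal just under the calling limit in the other, which peak lists do not show.

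**Figure D5:**
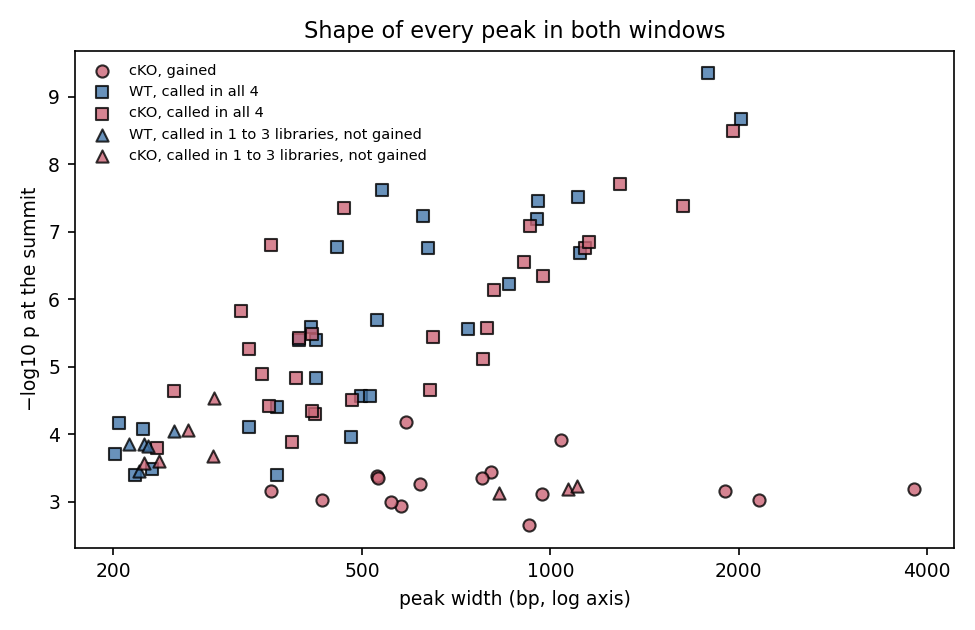
Width (bp, log axis) and −log10 p at the summit for every peak in both windows, 1 point per peak, with circles for peaks in gained regions, squares for regions called in all 4 libraries and triangles for the rest. The gained peaks lie along the bottom, at −log10 p of 2.65 to 4.18, and reach the largest widths.

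The motifs within 100 bp of the summit were then counted. An ISRE core was found in 4 of the 31 regions, all 4 of them among the 14 called in all libraries, and in 0 of the 8 gained regions. These were the Mx2 promoter, the Rsad2 promoter, the Rsad2 downstream region and the region between Rsad2 and Cmpk2. Over all regions of the genome 3.9% held an ISRE core, over gained regions 4.3% and over annotated promoters 3.44%. The AP-1 motif was found in 8 of the 31 regions, among them 3 of the 8 gained ones, where 16.7% of all regions and 27.0% of all gained regions had it. PU.1 was found in 6 of the 31 and 2 of the 8 (24.3% and 17.9% in the genome), and the gamma-activated site (TTC and GAA with 3 bases between) in 0 of the 31, where 6.1% of all regions had it. With 8 gained regions a share has little precision, and a match says only that these letters are there.

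The other antiviral interferon-stimulated genes were described from a list of 34. A gained region lay in the body or within 20 kb of 21 of them (61.8%, beside 10.7% of all genes), and a lost region near 6, beside 21.0%. The count of 21 was 8 once peaks of below-median area were left out. Peak cover of the body was higher in both cKO libraries for 22 of the 34 and lower for 3 (Oas1a, Oas1g and Xaf1). Over all genes with a peak in the body it was higher for 13.4% and lower for 36.6%. The median difference in cover was 1.32 percentage points over the list and -0.186 over all genes with a peak. Genes in clusters share regions, and the 21 genes had 28 distinct gained regions between them. The list was chosen with earlier results of these data known, so these counts are not independent evidence.

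The genes of the list with the most gained regions within 20 kb were Ifi44l with 7 and its neighbour Ifi44 with 6, which share a cluster, followed by Trim25, a ubiquitin ligase of the RIG-I pathway, and Zbp1, a sensor of Z-form nucleic acids, with 3 each. Ifit2, which binds RNA, had 2, as had Ifit3, Oasl1 and Oasl2. Ifi44 had no peak in its body in either WT library and a mean cover of 12.6 ± 0.902% (SD, n = 2) in cKO. Zbp1 had 4.48% and 3.23% in WT, against 13.4% and 12.8% in cKO. The largest difference of the list was in Irf7, which encodes a factor that drives interferon genes, with 23.8% and 27.7% in WT, against 35.2% and 42.8% in cKO, 13.3 percentage points, and was smaller than those of Mx1 and Rsad2. Among all 21756 genes, 55 had at least 3 gained regions in the body and 18 had at least 4, and Rsad2 was in the first group and Mx1 in both.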

How the data were processed

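ATAC-seq peak lists of 4 libraries, 2 WT and 2 cKO by their labels, were used. The sources state that paired reads were aligned to mm10 with Bowtie2 (version 2.5.1, also in the submitters' processing notes) and peaks called with Genrich at its default settings. Read filters, duplicate removal and the Tn5 shift are not given in the sources used here. The authors deposited 1 list per library, with an area signal for each peak (ranks only used here), a −log10 p-value at the summit, a score capped at 1000 (not used), an unset q-value and the summit position. The smallest area is about 200, the caller's limit. Read depth is unknown, so no interval for counting error is given, and the precision rests on 2 libraries a genotype.

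Peaks of the 4 lists sharing at least 1 bp were merged into regions (Python 3.11.15, pandas 2.3.3, numpy 2.4.6; sequences with pysam 0.24.0), and a percentile was taken within each list. Where a library had several peaks in a region, the largest gave the percentile. A promoter reached from 1 kb before to 100 bp after a start site. Genes came from the GENCODE M21 basic annotation of mm10 and sequences from RefSeq GRCm38.p6, the same build. The RefSeq promoter table matched 2 of the 4 genes, Rsad2 and Cmpk2. The region calls were tested on simulated lists, and all 400 gained or lost regions placed in them were recovered. No test between genotypes was made, because the genes were chosen on this contrast and only peak lists, not reads, were analysed here. Genes named were the 4 members, the deleted genes, the neighbours and the list genes with the most gained regions, and the marker genes named, Irf7, Oas1a, Oas1g and Xaf1 were chosen after their values were seen. A marker gene of the list is not reported here. The members and lists were chosen with earlier results of these data known. Alternatives were a threshold at the median area, lists of equal length, calls by 50% cover, windows of 10 and 50 kb, other ranks and leaving out each library.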

Additional observations from a re-analysis of the deposited data

How the results depend on the processing

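With all libraries kept, 61 alternative values were computed for 17 results, of which 44 stayed within the replicate spread or 1.5 times the count and 17 moved. When peaks of below-median area were dropped, the Mx window kept 1 gained region, the one over exons 6 to 12 of Mx1. The Rsad2-Cmpk2 window then had 2, the intron and downstream regions that all 4 full lists call, in place of the 3 described. At that threshold the difference in peak number was 1.5 (Mx) and 2.0 (Rsad2-Cmpk2), in covered length 3710 and 1594.5 bp, and in body cover 27.26 percentage points for Mx1 and 5.621 for Rsad2, and 8 of the 34 list genes had a gained region. With lists of equal length, 1 Mx region was lost and the difference in Mx peaks was 6.5. With 50 kb on each side the difference in Rsad2-Cmpk2 peaks was 7.0. Ranking promoters by area per bp gave differences of -18.62 (Mx1), -10.29 (Mx2) and -0.2604 (Cmpk2), and ranking by −log10 p gave -8.739 (Mx1), -6.073 (Mx2) and 14.23 (Rsad2). The cause was not tested. Leaving out 1 library at a time gave 0 to 2 lost Mx regions (2 without WT replicate 1, 1 without cKO replicate 2), 3 to 7 gained Rsad2-Cmpk2 regions (7 without cKO replicate 1) and a difference of 3.0 to 7.0 in Rsad2-Cmpk2 peaks. With 2 libraries a genotype, leaving 1 out can neither end a gained call nor move a difference beyond the spread, so these values do not bear on stability. The difference in Mx2 body cover, within the spread of the libraries, was -0.2774 percentage points at the median-area threshold and -0.3243 without cKO replicate 2. The alternatives for body cover were chosen after seeing the data. No paired analysis was possible because the results come from no test, and the replicate numbers are not said to mark a shared day or litter. Read depth is unknown, and a region absent from a list may lie just under the caller's limit.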
